A study of Homo sapiens with 18 samples.

Results

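Mitophagy is the removal of mitochondria by autophagy, and 7 genes with a role in choosing the mitochondria to be removed were followed here, out of 23106 genes counted in each sample. They were taken by name: BNIP3 and its paralogue BNIP3L (also called NIX), FUNDC1, BCL2L13, PHB2, FKBP8 and PINK1. Receptors such as BNIP3, BNIP3L, FUNDC1, BCL2L13 and FKBP8 sit in the outer mitochondrial membrane and bind LC3 or GABARAP proteins on the growing autophagosome, whereas PHB2 is an inner membrane prohibitin that does so once the outer membrane has ruptured. In the other route, the kinase PINK1 accumulates on damaged mitochondria and phosphorylates ubiquitin, and the ubiquitin chains are read by adaptors. BNIP3 and BNIP3L are textbook targets of hypoxia-inducible factor (HIF), and removal of mitochondria by this route is a known part of the adaptation of cells to low oxygen.

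Normoxic and hypoxic cultures of 3 established human cell lines were profiled by sequencing of polyA+ RNA, 3 replicates for each of 6 groups (18 samples). HKC-8 is a renal proximal tubule line, HepG2 a hepatocellular carcinoma line, and RCC4 a renal carcinoma line that had been stably transfected with wild-type VHL, the ubiquitin ligase subunit that marks HIF-α for destruction, so that normoxic and hypoxic RCC4 samples both carried the transgene. According to their labels, hypoxic HKC-8 and HepG2 cells were kept at 0.5% oxygen for 16 h and hypoxic RCC4 cells at 1% for 24 h, although hypoxic HKC-8 samples carry 0.1% in their titles and the published account of the study has 0.5% for 16 h in each line. Each line was thus compared with its own normoxic samples, and wherever RCC4 is set beside another line, cell line, oxygen level and duration cannot be told apart.

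Samples held 75441764 to 97984260 counts (HKC-8), 42045335 to 51794355 counts (RCC4) and 40915980 to 48355303 counts (HepG2). Levels are given as CPM, the count of a gene scaled to a common library total, and 3 counts were worth 0.0306 to 0.0733 CPM. All 7 liver markers were high in HepG2 cells (ALB, 10719 ± 911 CPM in normoxia), and ALB, APOA1, TTR, AFP and HNF4A were at or near 0 in the renal lines. SERPINA1 and FOXA2 were low in normoxic HKC-8 cells (0.173 and 0.0163 CPM) but present in normoxic RCC4 cells (10.1 and 1.88 CPM). PAX8, a renal tubule factor, was at 165 CPM in normoxic HKC-8 and 132 CPM in normoxic RCC4 cells, but PAX2 and CDH6 were near 0 in HKC-8 cells (means of 0.0147 and 0.0550 CPM in normoxia) and present in RCC4 cells (34.4 and 230 CPM). Of the markers of differentiated proximal tubule, LRP2, CUBN, SLC34A1, SLC22A6 and AQP1 were at or near 0 in HKC-8 cells, the highest value being 0.695 CPM of CUBN in a hypoxic sample, and ANPEP was higher in HepG2 cells (263 CPM in normoxia) than in HKC-8 (2.82 CPM) or RCC4 cells (0.49 CPM). Of the genes listed for renal carcinoma, each was also found in another line in normoxia. VIM was at 1835 CPM there and at 1303 CPM in HKC-8 cells, CDH2 was at 389 CPM beside 187 (HKC-8) and 158 CPM (HepG2), CP was at 25.1 CPM beside 101 CPM in HepG2 cells, and CA12 was near 0 in RCC4 but at 59.6 CPM in HKC-8 cells. A list of hypoxia-induced genes was chosen with earlier results of these data known, so it was not an independent check of the hypoxic exposure. The share induced over all genes tested was 11.2% (HKC-8), 25.9% (RCC4) and 19.9% (HepG2). All 8 tested genes of the list rose in RCC4 cells (median log2 fold change 2.32). All 10 were tested and rose in HKC-8 and HepG2 cells (medians of 1.83 and 3.09). Of these, CA9, a carbonic anhydrase, went from 5.34 to 161 CPM in HKC-8 and from 0.539 to 188 CPM in HepG2 cells, ANGPTL4 from 0.0120 to 1.92, from 0.657 to 34.6 and from 0.459 to 18.9 CPM in HKC-8, RCC4 and HepG2 cells, and EGLN3, an oxygen-sensing prolyl hydroxylase, from 1.74 to 9.08 and from 0.903 to 35.9 CPM in HKC-8 and HepG2 cells. In RCC4 cells CA9 and EGLN3 were too low to be tested, at no more than 0.102 CPM on average in either condition.

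BNIP3 lies on the minus strand of chromosome 10 (chr10:133781188-133795471 in GRCh37), and its promoter is shown because it is the one among those at hand that holds several copies of the core of the HIF recognition sequence. The core was searched as ACGTG and GCGTG on both strands, in the 250 bases before each RefSeq transcription start. The stretch below, from RefSeq (GRCh38.p14) and matched to 1 place in GRCh37, is chr10:133795472-133795677 on the minus strand, upstream of the annotated start of the gene, with the core matches in capitals (CACGC and CACGT are GCGTG and ACGTG read on the other strand, and CACGTG holds a match on each strand).
BNIP3 promoter: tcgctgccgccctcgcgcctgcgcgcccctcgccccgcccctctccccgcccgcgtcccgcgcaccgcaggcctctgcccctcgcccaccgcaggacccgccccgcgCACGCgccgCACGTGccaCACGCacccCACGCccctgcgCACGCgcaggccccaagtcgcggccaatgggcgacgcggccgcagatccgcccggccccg
These 6 core matches have their first base between positions -143 and -104, counted from the RefSeq start, in a promoter with a GC content of 81.6%. Of the 35116 promoters in the table, 43.2% had at least 1 match and 0.646% had 6 or more, and of the 2564 promoters within 5 percentage points of the GC content of BNIP3, 59.4% had at least 1 and 1.48% had 6 or more. The FUNDC1 promoter and both PHB2 promoters had no match, and the BCL2L13 promoters had 0, 1 and 0 matches at their 3 starts. Promoters of BNIP3L, PINK1 and FKBP8 were not analysed here. A match is a run of letters and was not tested as a binding site. As the BNIP3 promoter was picked for its matches, its place among all promoters is a description only. A link between matches and induction was not tested.

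BNIP3 was strongly induced by hypoxia in every line (see the plot of CPM by sample). CPM normalized by the trimmed mean of M-values (TMM) were 134, 106 and 121 in the normoxic and 804, 763 and 752 in the hypoxic HKC-8 samples. RCC4 cells had values of 41.1, 41.5 and 39.4 in normoxia and 389, 399 and 377 in hypoxia, and HepG2 cells had 103, 104 and 99.2 in normoxia and 615, 594 and 541 in hypoxia. No hypoxic sample came near the normoxic samples of its line, and the order of the 6 groups, from hypoxic HKC-8, HepG2 and RCC4 down to normoxic HKC-8, HepG2 and RCC4 cells, had no overlap between neighbours. BNIP3 rose by a log2 fold change of 2.69 ± 0.10 (standard error; 6.44-fold, adjusted p = 1.80e-06) in HKC-8 cells, 3.26 ± 0.039 (9.58-fold, adjusted p = 9.75e-26) in RCC4 cells and 2.51 ± 0.068 (5.71-fold, adjusted p = 6.94e-12) in HepG2 cells. In the order of fold changes, BNIP3 was number 83 of 13536 genes tested (HKC-8), number 18 of 12811 (RCC4) and number 122 of 13623 (HepG2). As CPM are shares of the RNA of a sample, more cells with a transcript and more transcript per cell cannot be told apart. Parts of the gene are not unique in the genome: 33.4% of the 50-base windows of its main transcript, and 11.5% of those of all its exons, occur elsewhere in GRCh37, and fragments without a unique place were removed before counting.

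BNIP3L, on chromosome 8 (chr8:26240570-26363152, plus strand), encodes the paralogue best known for clearing mitochondria from maturing red cells. Its CPM were 119, 99.9 and 161 in normoxic and 488, 408 and 563 in hypoxic HKC-8 cells, where the samples numbered 3 were the highest of both conditions. They were 86.0, 81.0 and 91.0 in normoxic and 381, 390 and 381 in hypoxic RCC4 cells, and 37.3, 33.0 and 33.6 in normoxic and 404, 372 and 349 in hypoxic HepG2 cells. The normoxic levels thus spread over the lines, in the order HKC-8, RCC4 and HepG2 without overlap, whereas the hypoxic levels of RCC4 and HepG2 cells overlapped. BNIP3L rose by 1.94 ± 0.18 on the log2 scale (3.84-fold, adjusted p = 0.000229) in HKC-8 cells, 2.17 ± 0.040 (4.49-fold, adjusted p = 3.04e-22) in RCC4 cells and 3.44 ± 0.076 (10.8-fold, adjusted p = 1.34e-12) in HepG2 cells. Its place in the order of fold changes was 174 (HKC-8), 40 (RCC4) and 63 (HepG2).

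An exon of PNMA2, on the opposite strand, shares 330 exon bases with BNIP3L, and the strand setting of the counting is not given in the sources used here. PNMA2 itself went from 23.9 to 34.7 CPM in HKC-8, from 37.3 to 75.6 CPM in RCC4 and from 0.17 to 0.36 CPM in HepG2 cells, with fewer counts than BNIP3L in each group. Its part in the BNIP3L counts was not tested.

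**Figure D1:**
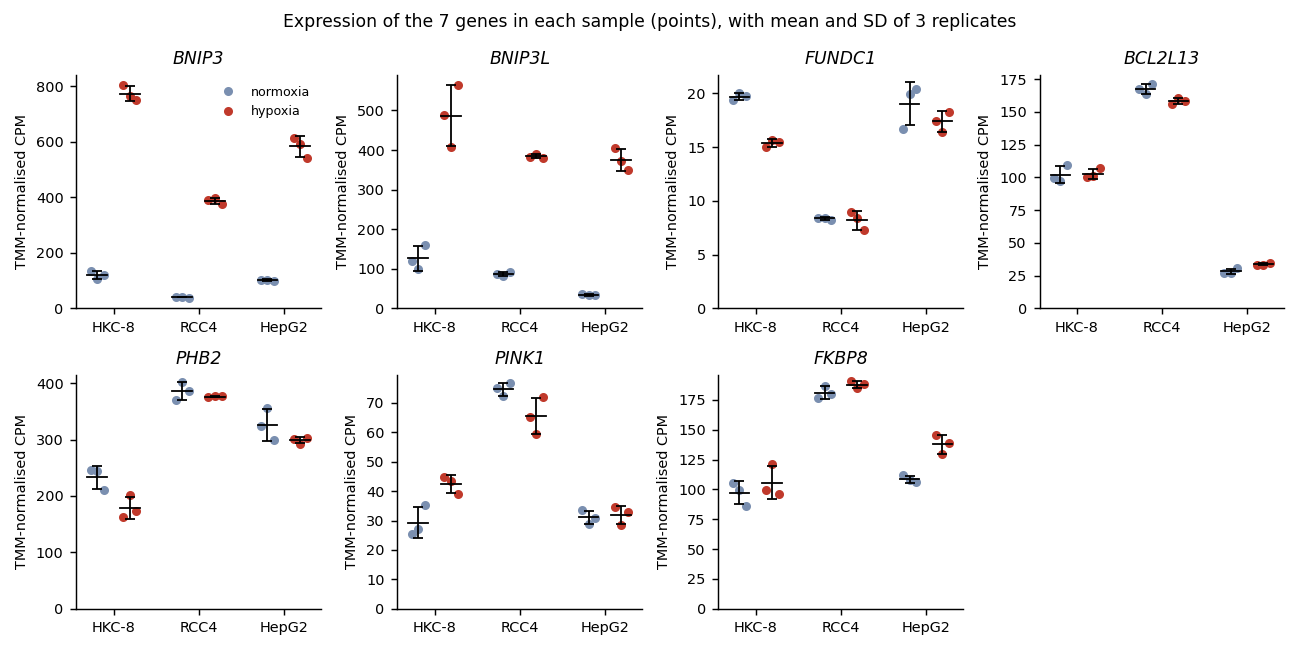
TMM-normalised CPM of the 7 genes (1 panel per gene, each with its own vertical axis from 0) in the 3 normoxic and 3 hypoxic samples of HKC-8, RCC4 and HepG2 cells; points are samples and bars the mean and SD. BNIP3 and BNIP3L sit far above their normoxic samples in hypoxia in each line.

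The size of the response of the paralogues differed between the lines, which was tested as the interaction of cell line and oxygen. The BNIP3L response was smaller in HKC-8 than in HepG2 cells (difference of the log2 fold changes -1.50 ± 0.21, adjusted p = 0.000330), and smaller in RCC4 than in HepG2 cells (-1.28 ± 0.086, adjusted p = 2.86e-09). No difference between RCC4 and HKC-8 cells was detected for BNIP3L (0.21 ± 0.21, 95% confidence interval -0.24 to 0.65, adjusted p = 0.570). The BNIP3 response was larger in RCC4 than in HKC-8 cells (0.56 ± 0.10, adjusted p = 0.00340) and than in HepG2 cells (0.74 ± 0.076, adjusted p = 8.01e-07), and no difference between HKC-8 and HepG2 cells was detected (0.17 ± 0.12, interval -0.09 to 0.42, adjusted p = 0.427). HKC-8 and HepG2 cells share 0.5% for 16 h in one field of their labels, but the titles differ (0.1% and 0.5%), so that a difference in oxygen level cannot be told apart from one of cell line here either. Between them 1 of the 7 genes, BNIP3L, differed, against 9.30% of 15046 genes tested. Between RCC4 and HKC-8 cells 2 of 7 differed (background 15.2%), and between RCC4 and HepG2 cells 4 of 7 (background 22.6%). These 3 comparisons share their samples in pairs and are not independent. The check of the pairing, given below, did not settle whether the replicate number should be a block. With it as a block, the counts of genes called rose from 1399 to 3019 for HKC-8 and HepG2 cells. For RCC4 and HKC-8 cells they rose from 2154 to 4071. PINK1 was added in the former comparison (0.51, adjusted p = 0.0231) and PHB2 in the latter (0.33, adjusted p = 0.00697). Single libraries moved these calls too. Without normoxic HKC-8 replicate 3, PINK1 was called between HKC-8 and HepG2 cells (0.68, adjusted p = 0.00380) and PHB2 (0.41, adjusted p = 0.0110) between RCC4 and HKC-8 cells. Without hypoxic HKC-8 replicate 2, PHB2 was called in the latter (0.44, adjusted p = 0.00716), and without hypoxic HepG2 replicate 2, PINK1 was called between RCC4 and HepG2 cells (-0.31, adjusted p = 0.0445). Without hypoxic HepG2 replicate 1, 911 genes differed between HKC-8 and HepG2 cells.

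As the paralogues were counted in the same library, their ratio needs no scaling between samples, and its change does not depend on gene length. The count of BNIP3L divided by that of BNIP3 was 0.889, 0.944 and 1.33 in normoxic and 0.607, 0.535 and 0.749 in hypoxic HKC-8 cells. The RCC4 samples had ratios of 2.09, 1.95 and 2.31 in normoxia and 0.980, 0.980 and 1.01 in hypoxia, and the HepG2 samples 0.361, 0.317 and 0.339 in normoxia and 0.656, 0.627 and 0.645 in hypoxia. The ratio was lower in each hypoxic sample than in each normoxic sample of HKC-8 and RCC4 cells, and the reverse was the case in HepG2 cells. It fell by 0.73 ± 0.23 log2 units in HKC-8 cells and by 1.09 ± 0.071 in RCC4 cells, and was 0.93 ± 0.057 log2 units higher in hypoxic HepG2 cells (exact two-sided permutation test, p = 0.10 in each line, which is the smallest value that 3 against 3 samples can give). The mean ratios of the lines ran from 0.339 ± 0.022 (SD, n = 3) to 2.12 ± 0.18 in normoxia, but only from 0.630 ± 0.11 to 0.990 ± 0.018 in hypoxia.

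**Figure D2:**
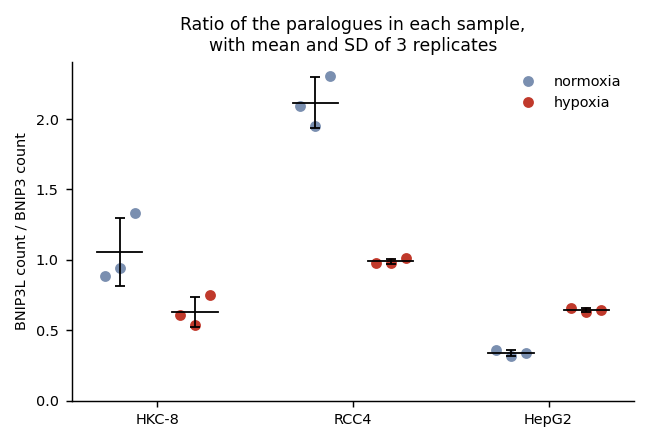
Ratio of the BNIP3L count to the BNIP3 count (vertical axis, no unit, from 0) in each normoxic and hypoxic sample of the 3 lines, with the mean and SD of 3 replicates. In hypoxia the ratio is lower in HKC-8 and RCC4 cells and higher in HepG2 cells, and the lines come to lie between 0.535 and 1.01.

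The other 5 genes changed little or not at all by comparison (see the plot of log2 fold changes). All 7 genes were tested in each line. In HKC-8 cells 3 were induced and 2 repressed, against a background of 11.2% and 9.12% of all genes tested. In RCC4 cells 2 of 7 were induced and 1 repressed (background 25.9% and 24.2%), and in HepG2 cells 4 of 7 were induced and 0 repressed (background 19.9% and 19.2%), with 0 repressed also at an unadjusted p under 0.05 in edgeR and by DESeq2. Since BNIP3 and BNIP3L account for 2 of the induced genes in each line, the other 5 genes had 1, 0 and 2 induced and 2, 1 and 0 repressed in HKC-8, RCC4 and HepG2 cells, on both sides of the background. The median log2 fold changes of the 7 genes were 0.12, -0.021 and 0.26 in HKC-8, RCC4 and HepG2 cells, beside 0.0036, -0.0018 and -0.0044 over all genes. With the replicate block in HKC-8 cells, 2836 genes in place of 1522 were called induced and 2919 in place of 1235 repressed, with the same number of members called. The HKC-8 counts also moved with single libraries: without normoxic replicate 1 or 2 or hypoxic replicate 1, 687, 933 and 750 genes were called induced and 326, 522 and 342 repressed, and without hypoxic replicate 3, 675 were called repressed.

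**Figure D3:**
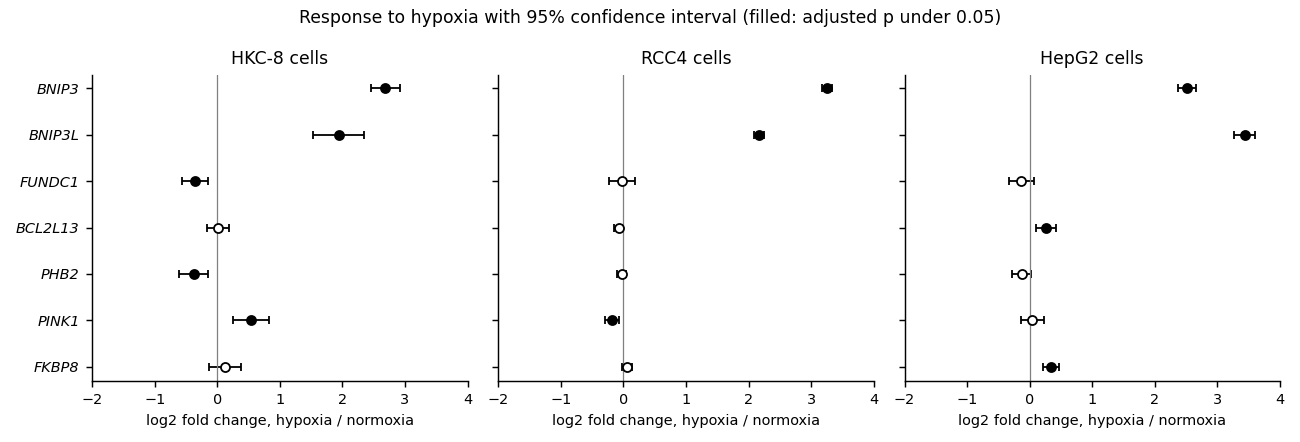
Log2 fold change of each gene between hypoxia and normoxia (horizontal axis) in HKC-8, RCC4 and HepG2 cells, with its 95% confidence interval; filled points have an adjusted p under 0.05. BNIP3 and BNIP3L lie at 1.94 or above in each line, and the other genes between -0.38 and 0.54.

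FUNDC1 (chrX:44382885-44402105, minus strand) encodes a receptor whose binding to LC3 is controlled by phosphorylation. Its CPM were 19.4, 20.0 and 19.7 in normoxic and 15.0, 15.6 and 15.5 in hypoxic HKC-8 cells, with no overlap. FUNDC1 fell by 0.35 ± 0.092 on the log2 scale there (adjusted p = 0.0279), but the call was lost without normoxic replicate 1 or 2 or hypoxic replicate 1 or 3 (adjusted p = 0.0921, 0.102, 0.111 and 0.0620). It was not called in RCC4 cells, where it ranged from 7.26 to 9.01 CPM over both conditions (-0.02 ± 0.099, interval -0.23 to 0.18), nor in HepG2 cells, where it ranged from 16.4 to 20.4 CPM (-0.13 ± 0.095, interval -0.34 to 0.07).

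BCL2L13 (chr22:18111621-18213621, plus strand), a BCL2-like protein that can stand in for the yeast mitophagy receptor Atg32, differed more between lines than between conditions. It ranged from 97.1 to 109 CPM in HKC-8 and from 156 to 171 CPM in RCC4 cells over both conditions, and neither line passed the test (0.02 ± 0.077, adjusted p = 0.905, and -0.08 ± 0.035, adjusted p = 0.0794). The hypoxic RCC4 samples (156 to 161 CPM) nevertheless all lay below the normoxic ones (164 to 171 CPM). In HepG2 cells it was 26.8, 27.3 and 30.8 CPM in normoxia and 33.2, 33.5 and 34.7 CPM in hypoxia, an increase of 0.26 ± 0.074 (adjusted p = 0.0141) that missed the threshold without normoxic replicate 1 or hypoxic replicate 3 (adjusted p = 0.0672 and 0.0529). The BCL2L13 response differed between RCC4 and HepG2 cells (-0.34 ± 0.074, adjusted p = 0.00245).

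FKBP8 (chr19:18642561-18654887, minus strand), an immunophilin-like protein that also restrains apoptosis, was 112, 108 and 106 CPM in normoxic and 145, 129 and 139 CPM in hypoxic HepG2 cells. All hypoxic samples were above all normoxic ones, and FKBP8 rose by 0.34 ± 0.061 (adjusted p = 0.000649). It was not called in HKC-8 cells (86.4 to 122 CPM over both conditions, 0.12 ± 0.11, adjusted p = 0.463) or in RCC4 cells (176 to 191 CPM, 0.06 ± 0.035, adjusted p = 0.187). The FKBP8 response was smaller in RCC4 than in HepG2 cells (-0.30 ± 0.071, adjusted p = 0.00499), a call that was lost in 1 fit of all 18 samples (adjusted p = 0.108).

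PHB2 (chr12:7074490-7079943, minus strand), the prohibitin of the inner membrane, was 246, 244 and 210 CPM in normoxic and 163, 201 and 172 CPM in hypoxic HKC-8 cells. The groups did not overlap, and PHB2 fell by 0.38 ± 0.10 (adjusted p = 0.0315), a call lost without normoxic replicate 1 or 2 or hypoxic replicate 1 or 3 (adjusted p = 0.123, 0.0912, 0.129 and 0.0883). In RCC4 cells it stayed within 369 to 402 CPM (-0.03 ± 0.034, interval -0.10 to 0.04). In HepG2 cells it ranged from 293 to 356 CPM (-0.13 ± 0.070, adjusted p = 0.172), and without normoxic replicate 3 it passed the test (-0.19, adjusted p = 0.0184). SCARNA12, a small RNA gene within PHB2 on the same strand, had at most 150 counts in a sample.

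PINK1 (chr1:20959951-20978004, plus strand) moved in different directions in the renal lines. In HKC-8 cells its CPM were 25.6, 27.0 and 35.3 in normoxia and 45.0, 43.4 and 38.9 in hypoxia, a rise of 0.54 ± 0.13 (adjusted p = 0.0198) that missed the threshold without normoxic replicate 1 or 2 or hypoxic replicate 1 (adjusted p = 0.0904, 0.0670 and 0.0845). In RCC4 cells they were 75.1, 72.3 and 76.7 in normoxia and 65.2, 59.5 and 71.9 in hypoxia, a fall of 0.18 ± 0.053 (log2 fold change -0.18, adjusted p = 0.00647) that was -0.12 without hypoxic replicate 2 (adjusted p = 0.0701). It was also not called in 1 fit of all 18 samples, which shares the spread of the lines (adjusted p = 0.221). The PINK1 response differed between RCC4 and HKC-8 cells (-0.74 ± 0.16, adjusted p = 0.00661). PINK1 ranged from 28.6 to 34.6 CPM over both conditions in HepG2 cells, where no change was detected (0.04 ± 0.085, interval -0.14 to 0.22). An antisense RNA that shares 1907 exon bases with PINK1 has no row in the counts, and without the strand setting its reads cannot be told apart from those of PINK1.

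Without hypoxia, the levels of the 7 genes separated the lines, as did those of most genes. The contrast of HKC-8 with HepG2 cells called 5 of 7 (background 83.0%), that of RCC4 with HKC-8 cells 7 of 7 (background 80.8%) and that of RCC4 with HepG2 cells 7 of 7 (background 83.3%). BCL2L13 was 2.56 ± 0.077 log2 units higher in RCC4 and 1.83 ± 0.075 higher in HKC-8 than in HepG2 cells. PINK1 was 1.36 ± 0.11 higher in RCC4 than in HKC-8 and 1.26 ± 0.11 higher than in HepG2 cells, and FKBP8 was 0.91 ± 0.075 and 0.73 ± 0.075 higher. FUNDC1 went the other way, with differences of -1.22 ± 0.10 and -1.20 ± 0.10 between RCC4 cells and the other two lines, as did BNIP3 (-1.55 ± 0.083 and -1.34 ± 0.083). BNIP3L was 1.85 ± 0.14 higher in HKC-8 and 1.30 ± 0.14 higher in RCC4 than in HepG2 cells, and PHB2 was 0.50 ± 0.083 lower (-0.50) in HKC-8 than in HepG2 cells. Between HKC-8 and HepG2 cells, FUNDC1 (0.03 ± 0.097) and PINK1 (-0.11 ± 0.11) were not called. Their BNIP3 and FKBP8 differences were small (0.22 and -0.18, adjusted p = 0.0232 and 0.0372). The former missed the threshold without normoxic HKC-8 replicate 1 (adjusted p = 0.121), and the latter without any 1 of the other normoxic samples but HKC-8 replicate 1 (adjusted p between 0.0563 and 0.509). The PHB2 difference between RCC4 and HepG2 cells (0.23, adjusted p = 0.0175) was lost without normoxic RCC4 replicate 2 (adjusted p = 0.0666), and PINK1 was called between HKC-8 and HepG2 cells without normoxic HKC-8 replicate 3 (-0.21, adjusted p = 0.0199). Depth was higher in HKC-8 samples, and cell line and depth cannot be told apart.

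Between genes, levels were set per kilobase of merged exons. In normoxia PHB2 was the highest of the 7 in each line, with 55.3 ± 4.82 CPM per kilobase (HKC-8), 91.4 ± 3.91 (RCC4) and 77.2 ± 6.74 (HepG2), followed by FKBP8 with 34.5 ± 3.48, 64.3 ± 1.92 and 38.5 ± 1.04 in the same order. In hypoxia BNIP3 headed the order at 191 ± 6.80, 95.8 ± 2.70 and 144 ± 9.40 CPM per kilobase and BNIP3L came next at 117 ± 18.7, 92.6 ± 1.30 and 90.4 ± 6.63. The ranges of BNIP3 and BNIP3L overlapped in hypoxic RCC4 cells, where PHB2 stood close at 89.0 ± 0.330, and with the length of the longest or of the main transcript PHB2 came first there. With the length of the main transcript, BNIP3 came before FKBP8 in normoxic HKC-8 (78.1 and 55.2 CPM per kilobase) and HepG2 cells (66.3 and 61.7), and PHB2 passed BNIP3L in hypoxic HepG2 cells. The lowest of the 7 was PINK1 in HKC-8 (6.06 ± 1.08 in normoxia and 8.78 ± 0.646 in hypoxia), FUNDC1 in RCC4 (6.65 ± 0.104 and 6.53 ± 0.702) and BCL2L13 in HepG2 cells (3.69 ± 0.286 and 4.41 ± 0.102), though with the length of the main transcript it was FUNDC1 in hypoxic HKC-8 cells. None of these lengths allows for bases that are not unique. Of the 50-base windows of the main transcript, 33.4% (BNIP3), 2.15% (BNIP3L) and 0% (PHB2) occur elsewhere in the genome. Fragments without a unique place were not counted, so BNIP3 in particular may be undercounted for its length. How far this moved BNIP3 in the order was not tested.

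The profile of BNIP3 over the 18 samples was most like those of PFKFB4 and ENO2, both of glycolysis, DDIT4, an inhibitor of mTORC1, FAM115C, and P4HA1, a subunit of collagen prolyl hydroxylase (Pearson's r of log2 CPM 0.981, 0.972, 0.979, 0.969 and 0.966, among 15306 genes). That of BNIP3L was most like MIR210HG, the host gene of miR-210, the lysyl hydroxylase gene PLOD2, ZNF395, TPBGL and GBE1, the glycogen branching enzyme (r = 0.983, 0.967, 0.966, 0.965 and 0.960). The points are the 18 samples, which share 3 lines, 2 conditions and 1 scaling, and the values describe likeness only. BNIP3 and BNIP3L themselves had an r of 0.843, and BNIP3L was number 39 in the list of BNIP3. In HKC-8, RCC4 and HepG2 cells, the 4 genes most like BNIP3L that were tested in each line rose by 3.25, 3.23 and 4.36 (MIR210HG), 0.89, 1.01 and 2.23 (PLOD2), 1.58, 1.62 and 2.78 (ZNF395) and 1.14, 0.89 and 2.42 log2 units (GBE1), each most in HepG2 cells. The 5 most like BNIP3 rose by 2.92, 3.95 and 4.27 (PFKFB4), 2.43, 2.72 and 2.08 (DDIT4), 2.36, 2.56 and 1.62 (ENO2), 5.32, 5.85 and 4.36 (FAM115C) and 1.76, 1.62 and 1.99 log2 units (P4HA1). FAM115C was scarce in normoxia (0.232, 0.0839 and 0.344 CPM in HKC-8, RCC4 and HepG2 cells), close to the floor in RCC4 cells, so its folds are uncertain. TPBGL was scarcer still, at or near the floor with 0.0888, 0.0276 and 0 CPM in normoxia in the same order. It had only 0.843, 0.401 and 0.205 CPM in hypoxia, so its r is uncertain. All these folds come from the samples on which the genes were chosen.

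The genes with which the receptors work were followed in lists, whose counts stand beside a background of 11.2% of all genes tested induced and 9.12% repressed in HKC-8, 25.9% and 24.2% in RCC4 and 19.9% and 19.2% in HepG2 cells. Nothing particular to a list is read from them. The ATG8 family, LC3 and GABARAP proteins to which receptors bind, had 0 of 6 tested genes called in HKC-8 cells, 1 induced and 2 repressed in RCC4 cells and 1 induced in HepG2 cells. At an unadjusted p under 0.05 in edgeR, 1 of the family was higher and 1 lower in HKC-8 cells, and DESeq2 called 0 induced and 1 repressed there. GABARAPL1 rose in RCC4 (68.7 to 80.8 CPM, log2 fold change 0.24, adjusted p = 6.63e-05) and HepG2 cells (13.1 to 18.1 CPM, 0.46, adjusted p = 0.00127). GABARAP fell in RCC4 cells (175 to 140 CPM, -0.32, adjusted p = 1.60e-07), as did the scarce MAP1LC3C (1.57 to 0.375 CPM, -2.05, adjusted p = 6.73e-06). Of 5 adaptors that bind ubiquitin chains and their kinase TBK1, taken as 1 list of 6, TBK1 was repressed in HKC-8 cells, whereas RCC4 cells had 2 of the list induced and 2 repressed and HepG2 cells 2 induced and 1 repressed. OPTN rose by 0.51 (adjusted p = 2.36e-10) in RCC4 and 0.47 (adjusted p = 0.000968) in HepG2 cells, whereas SQSTM1 (p62) went from 800 to 614 CPM in RCC4 (-0.38, adjusted p = 5.94e-10) and from 430 to 221 CPM in HepG2 cells (-0.96, adjusted p = 1.75e-06). TBK1 fell in HKC-8 cells (67.4 to 51.4 CPM, -0.39, adjusted p = 0.0153).

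Among 22 further genes of the PINK1 pathway, 0 were induced and 4 repressed in HKC-8, 5 induced and 8 repressed in RCC4 and 2 induced and 8 repressed in HepG2 cells, with median log2 fold changes of -0.24, -0.08 and -0.14. Over all genes tested, 11.2% were induced and 9.12% repressed in HKC-8, 25.9% and 24.2% in RCC4 and 19.9% and 19.2% in HepG2 cells. At an unadjusted p under 0.05 in edgeR, 11 were lower and 0 higher in HKC-8 cells, where DESeq2 called 8 repressed and 0 induced. TOMM20, a receptor of the import machinery of the outer membrane, rose in RCC4 (0.24, adjusted p = 1.61e-06) and HepG2 cells (436 to 643 CPM, 0.56, adjusted p = 1.10e-05). The mitofusin MFN1, a fusion GTPase of the outer membrane, fell in HKC-8 (108 to 75.2 CPM, -0.52, adjusted p = 0.00201) and HepG2 cells (-0.19, adjusted p = 0.0404). The deubiquitinase USP8 rose in RCC4 cells (29.2 to 41.5 CPM, 0.51, adjusted p = 6.74e-08), and TOMM7, which helps to hold PINK1 at the outer membrane, rose in RCC4 (0.11, adjusted p = 0.0373) and fell in HepG2 cells (-0.25, adjusted p = 0.0216).

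Of the regulators of the receptors, 2 of 11 tested genes were induced and 1 repressed in HKC-8, 1 of 10 induced and 2 repressed in RCC4 and 0 of 11 induced and 2 repressed in HepG2 cells (background 11.2% and 9.12%, 25.9% and 24.2%, and 19.9% and 19.2%), where 0 were higher at an unadjusted p under 0.05 in edgeR and 0 were called induced by DESeq2. The autophagy kinase ULK1 rose in HKC-8 (17.4 to 25.1 CPM, 0.54, adjusted p = 0.0149) and fell in RCC4 cells (27.5 to 23.1 CPM, -0.25, adjusted p = 0.00465). PGAM5, the phosphatase that acts on FUNDC1, fell in RCC4 (-0.38, adjusted p = 7.65e-08) and HepG2 cells (95.7 to 70.3 CPM, -0.45, adjusted p = 5.94e-05). PPTC7, a mitochondrial phosphatase that promotes the turnover of BNIP3 and BNIP3L proteins, rose in RCC4 cells (42.3 to 56.8 CPM, 0.43, adjusted p = 5.12e-08) and was at -0.23 in HepG2 cells (adjusted p = 0.0551). Of 8 other reported receptors, 1 was induced in HKC-8, 2 induced and 2 repressed in RCC4, and 2 induced and 3 repressed in HepG2 cells. NLRX1 rose in HKC-8 (0.51, adjusted p = 0.0281) and HepG2 cells (0.32, adjusted p = 0.0127), DISC1 rose in RCC4 cells (0.36, adjusted p = 0.00517), and ATAD3B fell in RCC4 (-0.29, adjusted p = 0.00401) and HepG2 cells (-0.45, adjusted p = 0.000150).

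BNIP3, BNIP3L and BCL2L13 are related to the BCL2 family, of which 2 of 15 other tested genes were induced and 2 repressed in HKC-8, 6 of 16 induced and 5 repressed in RCC4 and 5 of 16 induced and 2 repressed in HepG2 cells (background 11.2% and 9.12%, 25.9% and 24.2%, and 19.9% and 19.2%). The BH3-only gene BMF fell in RCC4 (9.62 to 3.49 CPM, -1.45, adjusted p = 7.68e-10) and rose in HepG2 cells (8.35 to 15.0 CPM, 0.84, adjusted p = 1.10e-05). BBC3 (PUMA) rose in HKC-8 cells from a low level (0.844 to 1.59 CPM, 0.92, adjusted p = 0.0157), and BIK in RCC4 cells from a lower one (0.241 to 0.784 CPM, 1.75, adjusted p = 0.00174). Of 8 genes of mitochondrial fission and fusion, 1 was induced and 2 repressed in HKC-8, 2 induced and 2 repressed in RCC4 and 1 repressed in HepG2 cells. MFN1 is given above, SMCR7, an adaptor of the fission machinery, rose in HKC-8 (0.68, adjusted p = 0.0161) and RCC4 cells (0.27, adjusted p = 0.000783), and OPA1, the fusion GTPase of the inner membrane, fell in HKC-8 (-0.28, adjusted p = 0.0348) and rose in RCC4 cells (0.11, adjusted p = 0.0334). Of the genes of mitochondrial biogenesis, 1 of 8 tested was repressed in HKC-8, 3 of 9 were induced and 4 repressed in RCC4 and 4 of 9 repressed in HepG2 cells, beside the same background (repressed 9.12%, 24.2% and 19.2%, induced in RCC4 cells 25.9%). None of them was higher in HKC-8 or HepG2 cells at an unadjusted p under 0.05 in edgeR or by DESeq2. TFB2M, a factor of mitochondrial transcription, fell in each line (-0.54, -0.25 and -0.43 in HKC-8, RCC4 and HepG2 cells, adjusted p = 0.0213, 0.000175 and 0.000308). The coactivator PPARGC1A fell in RCC4 cells (23.3 to 14.3 CPM, -0.70, adjusted p = 1.26e-08), and PPARGC1B fell in RCC4 (-0.29, adjusted p = 0.0408) and HepG2 cells (6.02 to 2.51 CPM, -1.26, adjusted p = 8.15e-05).

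**Figure D4:**
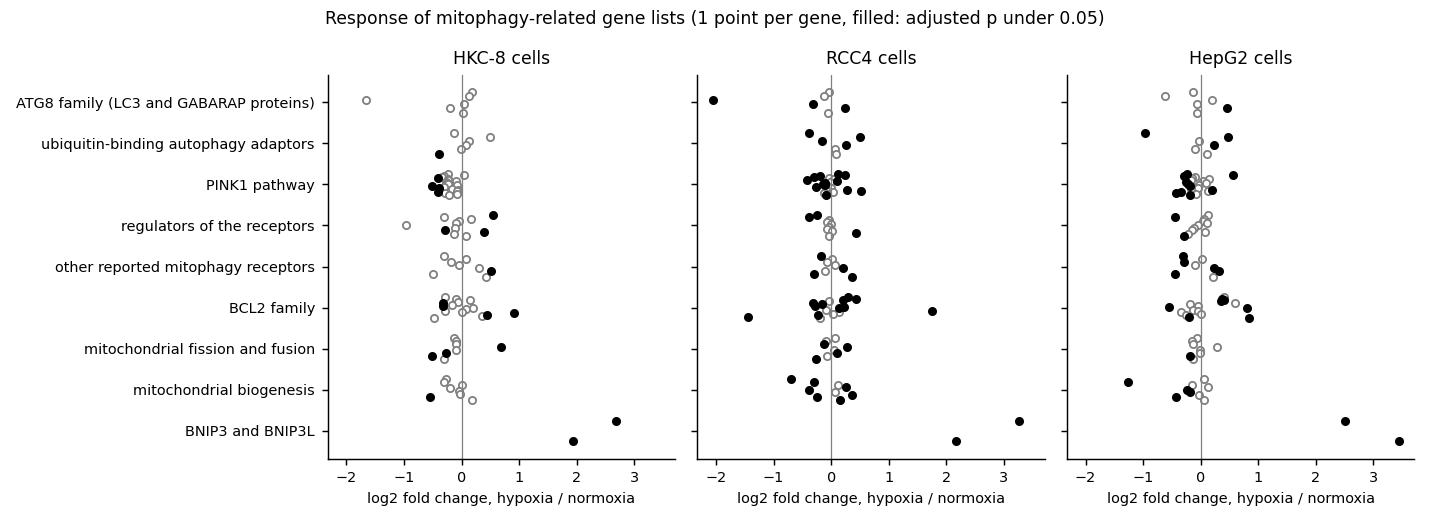
Log2 fold changes between hypoxia and normoxia (horizontal axis) of the tested genes of 8 lists, and of BNIP3 and BNIP3L, in the 3 lines; each point is a gene and filled points have an adjusted p under 0.05. In each list genes lie on both sides of 0 in every line, and BNIP3 and BNIP3L lie to the right of all of them.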

How the data were processed

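Reads were trimmed and aligned to GRCh37 by the authors, who kept uniquely mapping fragments and counted them on UCSC-defined genes in the intersection-strict mode of HTSeq. Per the labels the tools were Trim Galore 0.3.3, TopHat2 2.0.8b, Bowtie 1.0.0, SAMtools 0.1.19 and HTSeq 0.5.4p3. The deposited values are raw counts per gene and sample. Uniquely mapped reads undercount genes with copies, and intersection-strict counting drops reads lying in more than 1 gene.

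Samples were grouped by cell line and oxygen from their labels. The members and lists were chosen with earlier results of these data known. Counts were filtered with filterByExpr, scaled by TMM and tested with edgeR 4.0.16 (glmQLFit and glmQLFTest, R 4.3.3), with Benjamini-Hochberg adjustment over all genes tested and a threshold of 0.05. Adjusted p-values are from this test, except where DESeq2 is named. Hypoxia was tested within each line (6 samples), the difference in response in fits of 12 samples, and normoxic levels in 1 fit of 9 samples. A standard error is the log2 fold change divided by the square root of F, and CPM are on 1 TMM scale over 18 samples. Likeness is Pearson's r of log2 CPM with a prior count of 0.5. Scripts were tested on simulated data. Replicates differed by more than sampling noise, and by unequal amounts in the lines. The biological coefficient of variation in edgeR was 0.135 for HKC-8, 0.0437 for RCC4 and 0.0733 for HepG2 cells. Adjusted p-values and shares of genes called depend on this spread, so they do not rank the lines by size of response. The labels do not say that replicates were separate cultures, so p-values measure the spread between these samples.

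Named were the 7 members, from each list at most the 3 genes with the largest absolute log2 fold change among those called, any gene called in opposite directions, the 5 genes most like BNIP3 and BNIP3L, and counted genes that overlap a member. In HKC-8 cells, samples of 1 replicate number deviated together from the means of their groups in all 3 pairs (r = 0.104, 0.423 and 0.429). Normoxic replicate 1 correlated no less with hypoxic replicate 2 (r = 0.110). In HepG2 cells r was lower on average (0.152, 0.0593 and 0.174), but each sample correlated best with its own number. In RCC4 cells r stayed near 0 (-0.0135 to 0.0301). Alternatives were DESeq2 1.42.0, its size factors, no filter on low counts, a minimum of 10 counts per sample, 1 fit of 18 samples, the replicate block, each sample left out, and other gene lengths. The main transcript length and the leaving out of samples for the ratio were chosen after seeing the data. Positions, lengths and overlaps come from GENCODE on GRCh37. The set of RefSeq promoters at hand held those of 4 of the 7 genes. A further gene that the choice by name included is not reported here.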

Additional observations from a re-analysis of the deposited data

Results flagged for a closer look

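In 7 cases the response of a gene to hypoxia differed between 2 lines by the test of the difference itself. The BNIP3L response was -1.50 log2 units in HKC-8 relative to HepG2 cells (adjusted p = 0.000330) and -1.28 in RCC4 relative to HepG2 cells (adjusted p = 2.86e-09). The BNIP3 response was larger in RCC4 cells, by 0.56 than in HKC-8 (adjusted p = 0.00340) and by 0.74 than in HepG2 cells (adjusted p = 8.01e-07). The difference of PINK1 was -0.74 between RCC4 and HKC-8 cells (adjusted p = 0.00661), with opposite signs in the lines. BCL2L13 and FKBP8 had differences of -0.34 (adjusted p = 0.00245) and -0.30 (adjusted p = 0.00499) between RCC4 and HepG2 cells. In the 6 cases with RCC4 cells, cell line, oxygen level and duration cannot be told apart, and the titles of HKC-8 and HepG2 samples differ in oxygen level too.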

How the results depend on the processing

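The induction of BNIP3 and BNIP3L in each line kept its direction and passed the threshold in all 72 alternative values. Over all comparisons, 871 of 924 alternative log2 values of the 7 genes kept their direction and side of the threshold, 29 fell short of it, 13 came to pass it and 11 changed sign, all 11 of them values that were not called.

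The replicate block moved the genes called in HKC-8 cells to 2836 induced and 2919 repressed, and those differing to 3019 between HKC-8 and HepG2 cells (2 members) and 4071 between RCC4 and HKC-8 cells (3 members). It also called PINK1 between RCC4 and HepG2 cells (-0.24, adjusted p = 0.0422), and changed no other call of a member. Same-numbered samples correlated at -0.0135 to 0.0301 (RCC4) and 0.0593 to 0.174 (HepG2 cells, where each sample correlated best with its own number). In 1 fit of all 18 samples, 2503 genes were induced and 2510 repressed in HKC-8, and 1867 and 1419 in RCC4 cells with 0 members repressed. The same fit gave 2219 genes and 2 members between HKC-8 and HepG2 cells (PINK1 added, adjusted p = 0.0334) and 1886 genes between RCC4 and HepG2 cells. PHB2 passed the threshold between RCC4 and HKC-8 cells with DESeq2, without the filter and in the fit of 18 samples (adjusted p = 0.0285, 0.0362 and 0.0402). With at least 10 counts in every sample the normoxic FUNDC1 difference between HKC-8 and HepG2 cells was -0.0061 and that of BNIP3 was not called (adjusted p = 0.0517), and without the filter and in the fit of 18 samples that of FKBP8 was not (adjusted p = 0.228 and 0.0764). The causes were not tested.

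Leaving out 1 sample at a time, the counts ranged in HKC-8 cells from 687 to 1794 genes induced, 326 to 1489 repressed and 0 to 2 members repressed, in RCC4 cells from 0 to 1 members repressed, and in HepG2 cells from 0 to 1. Genes differing ranged from 911 to 1890 between HKC-8 and HepG2 cells (1 to 2 members). Log2 values that changed sign in these settings ranged from -0.019 to 0.067 for BCL2L13 in HKC-8, -0.091 to 0.061 for FUNDC1 in RCC4 and -0.018 to 0.12 for PINK1 in HepG2 cells. Between RCC4 and HKC-8 cells they ranged from -0.0023 to 0.36 for BNIP3L and -0.14 to 0.043 for FKBP8, and for the normoxic difference of HKC-8 from HepG2 cells from -0.0056 to 0.13 for FUNDC1 and -0.21 to 0.015 for PINK1. No value given for the 7 genes rests on counts near the floor of 3.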
